A study of Rattus norvegicus with 4 samples.

Results

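Expression of smooth muscle and contractile genes was described across neurons and neural stem cells (NSC) from the adult rat brain. The set held 10 genes: Acta2, Tagln, Myl9, Cnn1, Tpm1, Tpm2, Tpm4, Myh11, Des and Pdgfrb. A probe was taken when its accession belonged to one of them. This gave 12 probes of 7 genes, of 10783 named probes and 8927 named genes in all. Tagln, Cnn1, Tpm4, Des and Pdgfrb had 1 probe each, Tpm2 had 3 and Tpm1 had 4. No probe was matched to Acta2, Myl9 or Myh11 (smooth muscle actin, regulatory light chain and myosin heavy chain), and these 3 genes were not analysed here.

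The series, whose title concerns insulin biosynthesis, comprised 4 Agilent 1-colour arrays with Cy3-labelled cRNA from cells of the Fisher 344 rat. There were 4 groups with 1 array each: neurons derived from olfactory bulb (OB) NSC, neurons derived from hippocampal (HPC) NSC, OB NSC and HPC NSC. Each array held total RNA pooled from 3 separate experiments, so the arrays give no spread between cultures and no difference between 2 arrays has a replicate check. Both neuron arrays lay on 1 slide and both NSC arrays on another, each slide with its own scan, so slide and cell state cannot be told apart, whereas each OB to HPC comparison lies within a slide. In RNA from a whole culture, fewer cells of a type and less RNA per cell cannot be told apart either.

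Smooth muscle contracts when myosin pulls on actin filaments that are wrapped by tropomyosin and bound by calponin and transgelin, while desmin filaments tie the contractile units to the cell cortex. Tropomyosins, transgelin and calponin are also found in the stress fibres of fibroblasts and other cultured adherent cells. In the brain, these proteins are known from the mural cells of vessels, the smooth muscle cells and pericytes, which carry the PDGF receptor beta. Many smooth muscle genes are controlled by serum response factor (SRF), which binds a promoter element called the CArG box, together with myocardin-related co-activators.

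Values are the processed fluorescence signal of a spot, in intensity units. For differences, the signal was taken as log2 and the array's 75th percentile was subtracted. Of all probes, 74.0% were well above background on the OB neuron array, 66.6% on the HPC neuron array, 63.8% on the OB NSC array and 60.2% on the HPC NSC array. Where a probe was not well above background on 1 of 2 arrays, the difference is a lower bound, given as "at least": the bright signal was set against the dimmest detected signal of the dim array, or against the dim probe's own signal if higher. Differences of 1 log2 unit (2-fold) or more were counted as higher or lower. The error given with a log2 difference (±) combines the scanner software's error estimates for the 2 spots. It describes spots, not cultures. Among repeat spots of a probe, the log2 signal had a median SD of 0.06 to 0.09 on the 4 arrays. Over the 40 member spots well above background of 48, that error was between 10% and 17.5% of the signal, with a median of 10%. The labels of the cells were set against 11 neuron markers. Stmn2 was well above background only on the neuron arrays, with differences of at least 5.01 in OB and at least 5.83 in HPC, whereas Mapt, the axonal protein tau, was lower in neurons by -6.44 in OB and -3.62 in HPC. The names neurons and NSC are used as the labels give them.

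The first comparison set neurons against the NSC they came from. Of the 7 measured genes, Tagln, Cnn1, Tpm2, Des and Pdgfrb were higher in neurons of both sources. By their brightest probes the measured differences were 13.7-fold and 20.4-fold for Des and 362-fold and 416-fold for Tpm2 in OB and HPC. For Tagln, Pdgfrb and Cnn1 only lower bounds could be given, the lowest being 3.09-fold for Cnn1 in OB. Tpm1 and Tpm4 were at similar levels in neurons and NSC by their brightest probe. Thus 5 of 7 genes were higher by 2-fold or more in OB, where 26.9% of 7022 named genes were, and 5 of 7 were higher in HPC, where 21.8% of 6657 were. The same 5 genes were higher in both sources, against 18.5% of 6567 genes. None of the 7 was lower by 2-fold or more in OB (20.0% of all genes), in HPC (26.9%) or in both (16.8%). The median difference over the 7 genes was 3.77 in OB and 4.35 in HPC, beside 0.08 and -0.32 over all genes compared. The members were chosen with these results known, so this is a description and no test of the list.

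**Figure D1:**
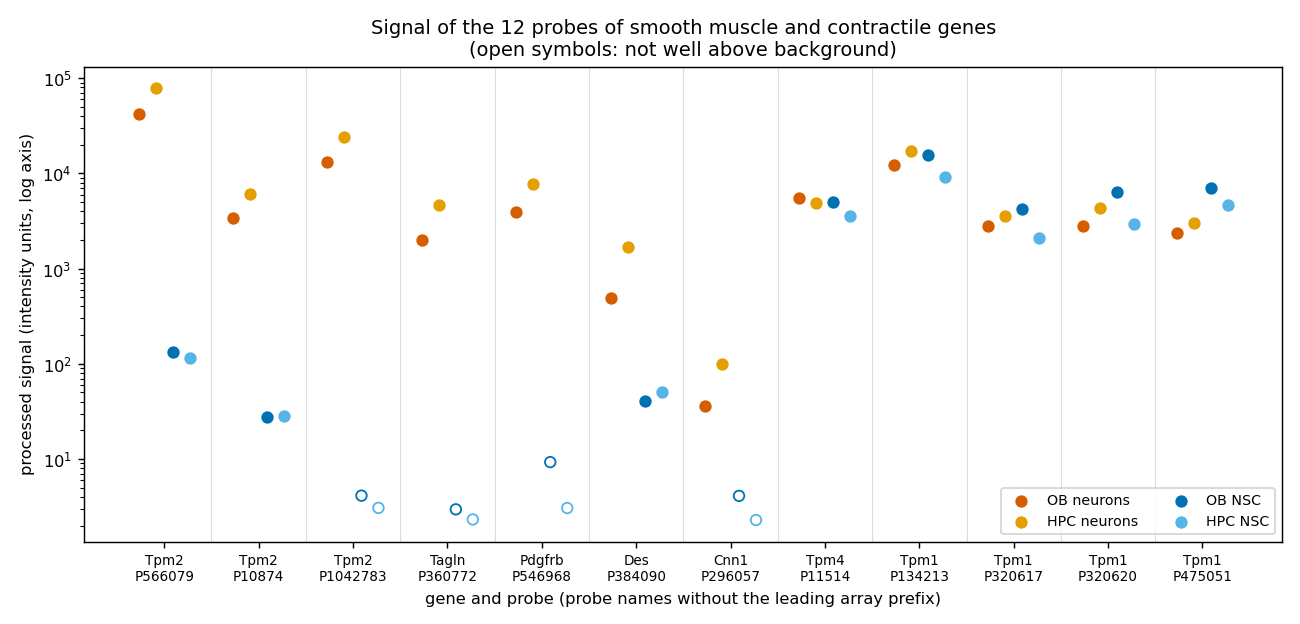
Processed signal (intensity units, log axis) of the 12 probes on the OB neuron, HPC neuron, OB NSC and HPC NSC arrays. Each symbol is 1 spot signal on 1 array and open symbols were not well above background. The probes of Tpm2, Tagln, Pdgfrb, Des and Cnn1 sit higher on both neuron arrays than on both NSC arrays, while those of Tpm4 and of 3 of the 4 Tpm1 probes overlap and Tpm1 A_44_P475051 sits lower on both neuron arrays. Heights are not scaled between arrays, whose 75th percentile ran from 487 in HPC NSC to 816 in OB NSC. Small differences within a probe are therefore not to be read from them. Heights are not comparable between probes.

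Among the actin-binding proteins, Tagln (transgelin or SM22, an actin-bundling protein used as an early smooth muscle marker; probe A_44_P360772, NM_031549) had a signal of 2004 in OB neurons and 4705 in HPC neurons, against 2.96 in OB NSC and 2.32 in HPC NSC. Both NSC signals were not well above background, and the neuron signals stood 235 and 301 times above the lowest detected signal of their arrays in OB and HPC. Tagln was thus at least 7.43 log2 units (173-fold) higher in OB neurons than in OB NSC, and at least 7.96 (249-fold) higher in HPC neurons than in HPC NSC.

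Cnn1 (calponin, an actin-binding protein that restrains myosin in differentiated smooth muscle; A_44_P296057, NM_031747) had a signal of 35.9 in OB neurons and 100 in HPC neurons, against 4.10 in OB NSC and 2.28 in HPC NSC. Again only the neuron arrays were well above background, but these signals were only 4.21 and 6.41 times the lowest detected signal in OB and HPC neurons. The bounds were therefore low, at least 1.63 (3.09-fold) in OB and at least 2.41 (5.30-fold) in HPC. Cnn1 was the one called member that other settings brought under 2-fold: with normexp background correction the bounds were 0.66 in OB and 0.85 in HPC, and in OB they were 0.88 with quantile normalization and 0.89 with spike-in scaling. In a limma fit over all arrays Cnn1 was not called with normexp either. This left 4 of 7 members, beside 1219 of 7111 genes called higher in neurons.

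Tpm2 (beta-tropomyosin, the tropomyosin prominent in smooth and slow muscle) was measured by 3 probes to transcript NM_001024345. The brightest, A_42_P566079, had a signal of 42358 in OB neurons and 78555 in HPC neurons, against 132 in OB NSC and 114 in HPC NSC. It was well above background on all 4 arrays and its neuron and NSC signals lay far apart. The difference was 8.50 ± 0.21 (362-fold) in OB and 8.70 ± 0.21 (416-fold) in HPC. Among the 5495 genes well above background on all 4 arrays, this ranked 19th from the highest in OB and 8th in HPC.

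The other 2 Tpm2 probes pointed the same way. A_43_P10874 had a signal of 3364 in OB neurons and 6071 in HPC neurons, against 27.3 in OB NSC and 28.6 in HPC NSC, a difference of 7.12 ± 0.29 in OB and 7.00 ± 0.26 in HPC. A_44_P1042783 had a signal of 13286 in OB neurons and 24175 in HPC neurons, against 4.12 in OB NSC and 3.06 in HPC NSC. Neither of those NSC signals was well above background, so its differences were at least 10.16 in OB and at least 10.32 in HPC. The size thus depended on the probe: the 2 probes measured on all arrays differed from each other by 1.38 in OB and 1.70 in HPC. In NSC, A_43_P10874 was only 2.09 times the lowest detected signal in OB and 2.50 times in HPC. For A_42_P566079 these values were 10.1 and 9.98. Whether the dim NSC signals account for the gap was not tested.

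Des (desmin, the intermediate filament protein of muscle and of mural cells; A_44_P384090, NM_022531) had a signal of 494 in OB neurons and 1697 in HPC neurons, against 40.6 in OB NSC and 50.3 in HPC NSC. All 4 signals were well above background and both neuron signals exceeded both NSC signals. The NSC signals were only 3.11 times the lowest detected signal in OB and 4.40 times in HPC. The difference was 3.77 ± 0.23 (13.7-fold) in OB and 4.35 ± 0.22 (20.4-fold) in HPC, ranking 215th and 97th of the 5495 genes in OB and HPC.

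Pdgfrb (the receptor for PDGF-B that marks pericytes and vascular smooth muscle; A_42_P546968, NM_031525) was the member that is not part of the contractile apparatus. Its signal was 3942 in OB neurons and 7748 in HPC neurons, against 9.27 in OB NSC and 3.05 in HPC NSC. The receptor was well above background in neurons only, as Tagln was. It was at least 8.41 (340-fold) higher in OB neurons and at least 8.68 (410-fold) higher in HPC neurons than in the NSC of the same source.

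**Figure D2:**
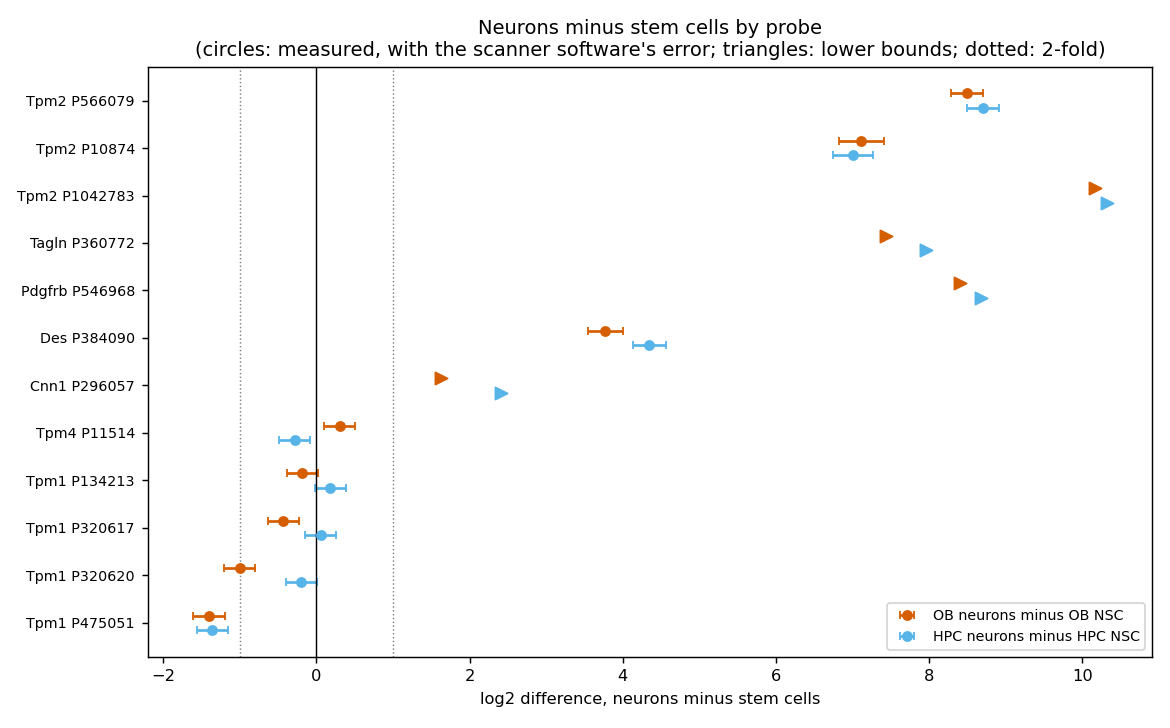
Log2 difference of neurons minus NSC for each of the 12 probes (probe names without the array prefix), in OB and in HPC. Circles are measured differences with the scanner software's error as bars, triangles are lower bounds, and dotted lines mark 2-fold. Tpm2, Tagln, Pdgfrb, Des and Cnn1 lie to the right of 2-fold in both sources, Tpm4 lies near 0, and the 4 Tpm1 probes spread from 0.18 to -1.40.

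Tpm4 (a tropomyosin of the cytoskeleton in many non-muscle cells; A_43_P11514, NM_012678) had a signal of 5554 in OB neurons and 4840 in HPC neurons, against 5066 in OB NSC and 3557 in HPC NSC. All 4 signals were well above background and of one order. The difference was 0.30 ± 0.20 in OB and -0.28 ± 0.20 in HPC. Its sign depended on the scaling in both sources: it ran from -0.44 to 0.60 in OB and from -0.74 to 0.14 in HPC over the alternatives.

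Tpm1 (alpha-tropomyosin, whose gene gives muscle and non-muscle forms through alternative start sites and exons) was measured by 4 probes, which did not give the same difference. The brightest, A_44_P134213 (NM_001034069), had a signal of 12109 in OB neurons and 17332 in HPC neurons, against 15451 in OB NSC and 9239 in HPC NSC. Neuron and NSC signals overlapped, with a difference of -0.18 ± 0.20 in OB and 0.18 ± 0.20 in HPC, and both signs turned with another scaling.

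The other 3 Tpm1 probes were designed on NM_019131. A_44_P475051 had a signal of 2374 in OB neurons and 3003 in HPC neurons, against 7059 in OB NSC and 4649 in HPC NSC. Both neuron signals were below both NSC signals. It was lower in neurons by -1.40 ± 0.20 (2.64-fold) in OB and -1.36 ± 0.20 (2.56-fold) in HPC. Its sign was negative under all 7 normalizations in both sources, between -2.14 and -1.11 in OB and between -1.82 and -0.93 in HPC. It was lower by 2-fold in 7 of 7 in OB and in 4 of 7 in HPC. The authors' table is among the 7 and repeats the main values.

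A_44_P320620 had a signal of 2812 in OB neurons and 4279 in HPC neurons, against 6335 in OB NSC and 2959 in HPC NSC. Unscaled, the neuron and NSC signals overlapped. The scaled log2 levels were 1.96 in OB neurons, 2.41 in HPC neurons, 2.96 in OB NSC and 2.60 in HPC NSC. The difference of neurons minus NSC was -1.001 ± 0.20 in OB and -0.19 ± 0.20 in HPC. A_44_P320617 had a signal of 2799 in OB neurons and 3605 in HPC neurons, against 4244 in OB NSC and 2096 in HPC NSC, with differences of -0.43 ± 0.20 in OB and 0.06 ± 0.20 in HPC.

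A contrast within each array needs no scaling between arrays. The log2 signal of A_44_P475051 minus the mean of the other 3 Tpm1 probes was -0.94 in OB neurons and -1.10 in HPC neurons, against -0.08 in OB NSC and 0.27 in HPC NSC. It was lower on both neuron arrays than on both NSC arrays. The range of the neuron minus NSC difference over the 4 Tpm1 probes was 1.22 in OB and 1.54 in HPC. Over the 163 genes with 3 or more probes detected on every array, the median range was 0.37 in OB and 0.34 in HPC, and 14 of them (8.59%) in OB and 9 (5.52%) in HPC had a range as wide as that of Tpm1 or wider. Which Tpm1 transcripts each probe binds, and whether probes of one tropomyosin gene bind RNA of another, was not tested.

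**Figure D3:**
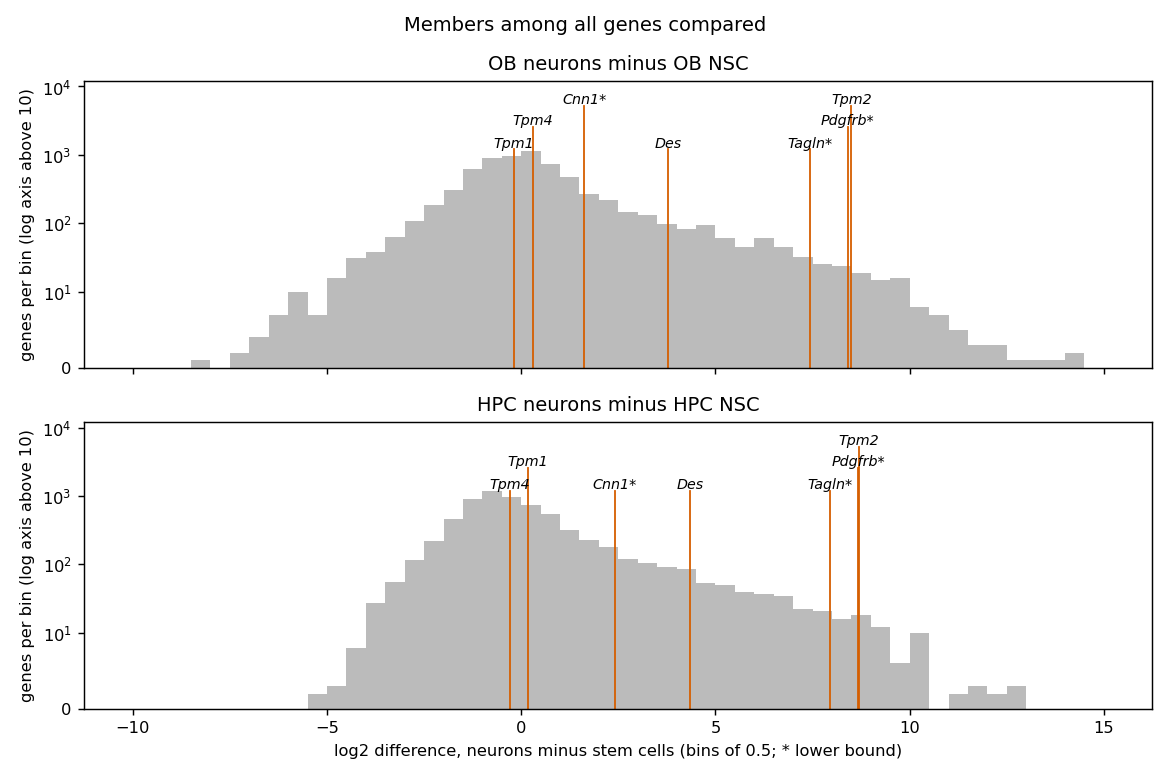
Number of named genes per bin of 0.5 log2 units of the neuron minus NSC difference (counts on a log axis above 10), for OB above and HPC below. Orange lines mark the 7 measured genes by their brightest probe and asterisks mark lower bounds. Tpm2, Pdgfrb and Tagln lie in the upper tail in both sources, Des and Cnn1 nearer the bulk, and Tpm1 and Tpm4 within it.

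The state difference was also tested over both sources with limma, in an additive model of source and state over the 4 arrays, with Benjamini-Hochberg adjustment over 7112 genes. This fit used the measured signals, those below background included, and had 1 residual degree of freedom, so that a real difference between the 2 sources counts as error. With the variance trend it called Tagln, Cnn1, Tpm2, Des and Pdgfrb higher in neurons, 5 of 7, beside 22.5% of all genes. None of the 7 was called lower, beside 22.1%. The spread of each gene was then taken wholly from the trend, so the p-values are given from the fit without it. Without the trend the same 5 of 7 were called higher, beside 1383 of the 7112 genes, while 863 genes were called lower. Tagln, Pdgfrb and Cnn1 entered the fit through the neuron arrays alone, so their size is given only by the bounds above and their p rests on NSC signals below background. Without the trend limma's adjusted p was 4.64e-05 for Tagln, 5.61e-05 for Tpm2, 6.66e-05 for Pdgfrb, 0.000853 for Des and 0.00172 for Cnn1. For Tpm4 it was 0.987 and for Tpm1, by the brightest probe, 1.00. For the 2 called genes detected on every array, the fitted difference was 8.60 ± 0.43 (SE, 4 arrays) for Tpm2 and 4.06 ± 0.44 for Des.

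Promoters of the measured genes are shown because the members divide into those counted as higher in neurons (Tpm2, Des, Cnn1) and those that were not (Tpm1, Tpm4). RefSeq sequences of the rat assembly GRCr8 were found for 6 of the 10 genes, the sixth being Acta2. The 250 bases before each gene's start were searched on both strands for the CArG box with at most 1 base off, for GGGCGG (the site of Sp1-type factors), CAGCTG (an E-box), GGAATG (a site of TEAD factors) and TATAAA. The last 100 bases before the start are printed 5′ to 3′ on the gene's strand, and capitals mark a match. They are Tpm2 at chr5:62575727-62575826 (minus strand), Des at chr9:84299526-84299625 (plus strand), Cnn1 at chr8:28908337-28908436 (plus strand), Tpm1 at chr8:76543416-76543515 (minus strand) and Tpm4 at chr16:17732484-17732583 (minus strand).
Tpm2: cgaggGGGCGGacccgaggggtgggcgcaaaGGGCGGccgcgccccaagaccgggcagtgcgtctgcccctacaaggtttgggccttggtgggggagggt
Des: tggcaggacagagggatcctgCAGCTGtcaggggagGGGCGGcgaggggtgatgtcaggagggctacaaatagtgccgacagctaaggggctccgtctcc
Cnn1: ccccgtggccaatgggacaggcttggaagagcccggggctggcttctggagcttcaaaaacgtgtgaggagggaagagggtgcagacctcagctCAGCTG
Tpm1: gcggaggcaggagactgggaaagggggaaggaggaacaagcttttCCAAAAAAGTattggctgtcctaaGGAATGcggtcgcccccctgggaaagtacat
Tpm4: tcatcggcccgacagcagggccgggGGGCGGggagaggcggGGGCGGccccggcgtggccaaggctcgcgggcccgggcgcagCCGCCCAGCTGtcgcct

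The capitals in Tpm1 are a CArG box with 1 base off and a GGAATG, those in Tpm2 are 2 GGGCGG, and those in Des are a CAGCTG and a GGGCGG. In Cnn1 they mark a CAGCTG, and in Tpm4 a pair of GGGCGG and, overlapping near the start, a GGGCGG on the other strand and a CAGCTG. No exact CArG box lay in the 250 bases of any of the 6 genes, beside 1.50% of 33469 rat promoter windows of the same length. With at most 1 base off, Tpm1 held boxes beginning at bases -195 and -55 from the start, and Acta2 at -134 and -84 (2 of 6 genes, beside 18.7% of windows). GGGCGG was in 4 of 6 (30.5% of windows), CAGCTG in 4 of 6 (11.97%), GGAATG in 2 of 6 (12.1%) and TATAAA in 0 of 6 (12.9%). These letters did not separate the genes that were higher in neurons from Tpm1 and Tpm4: Tpm2, Des and Tpm4 all held GGGCGG, and Des, Cnn1 and Tpm4 all held CAGCTG. A match is a description of the sequence, and no match says only that the letters are not in this window.

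The second comparison set OB against HPC within each state. In neurons, Tagln, Cnn1 and Des were lower in OB than in HPC, and Tpm2 and Pdgfrb lay below HPC by less than 2-fold. Of the 7 genes, 3 were lower by 2-fold or more, beside 8.00% of 6999 named genes, and none was higher, beside 7.66%. The difference was negative for 6 of 7 genes, all but Tpm4, where 50.7% of all named genes had a negative difference. The median over the 7 genes was -0.82, beside -0.01 over all genes compared. The arrays are those of the first comparison, so these values are not independent of it.

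Using the signals given above, Des differed most, by -1.63 ± 0.20 (3.10-fold lower in OB neurons than in HPC neurons). It was lower by 2-fold or more under all 10 settings, between -2.06 and -1.51. Cnn1 differed by -1.33 ± 0.22 (2.52-fold), with a 2-fold call in 8 of 9 settings and -0.65 after normexp. Tagln differed by -1.08 ± 0.20 (2.11-fold), close to the 2-fold limit, and stayed beyond it in 9 of 9 settings, between -1.51 and -1.01. Each of these genes had 1 probe, well above background on both neuron arrays. The authors' table, the filters and the mean over probes therefore could not change these values, and the settings are not independent checks.

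Pdgfrb differed by -0.82 ± 0.20 (1.77-fold) between OB neurons and HPC neurons. The 3 Tpm2 probes gave -0.74, -0.71 and -0.70 (each ± 0.20), within 0.04 of each other, although they differed widely in the neuron to NSC comparison. Tpm4 differed by 0.35 ± 0.20, and the Tpm1 probes lay between -0.45 and -0.19. Only the spike-in scaling brought Tpm2 (-1.17) and Pdgfrb (-1.25) past 2-fold, under which the median of all genes was -0.43.

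In NSC, only 4 of the 7 genes were well above background on either array, namely Tpm1, Tpm2, Tpm4 and Des. Des was lower in OB NSC than in HPC NSC by -1.05 ± 0.24 (2.08-fold), the 1 of 4 genes past 2-fold, beside 6.98% of 6028 named genes, and none of the 4 was higher, beside 4.16%. Both Des signals were dim, 3.11 times the lowest detected signal in OB NSC and 4.40 times in HPC NSC. Unscaled they were 40.6 and 50.3, on arrays with a 75th percentile of 816 in OB NSC and 487 in HPC NSC. The call of Des held in 7 of 10 settings and its sign in all 10, between -1.07 and -0.32. The authors' table, the filters and the mean over probes could not change the Des value. Of the other scalings, median (-1.07) and quantile (-1.02) kept the call. Normexp (-0.75), the percentile over detected probes (-0.89) and spike-ins (-0.32) did not. Tpm2 differed by -0.54 ± 0.21, Tpm4 by -0.24 ± 0.20 and Tpm1, by its brightest probe, by -0.00 ± 0.20. The median over the 4 genes was -0.39, beside -0.43 over all genes compared, so the members lay near the shift of all genes.

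**Figure D4:**
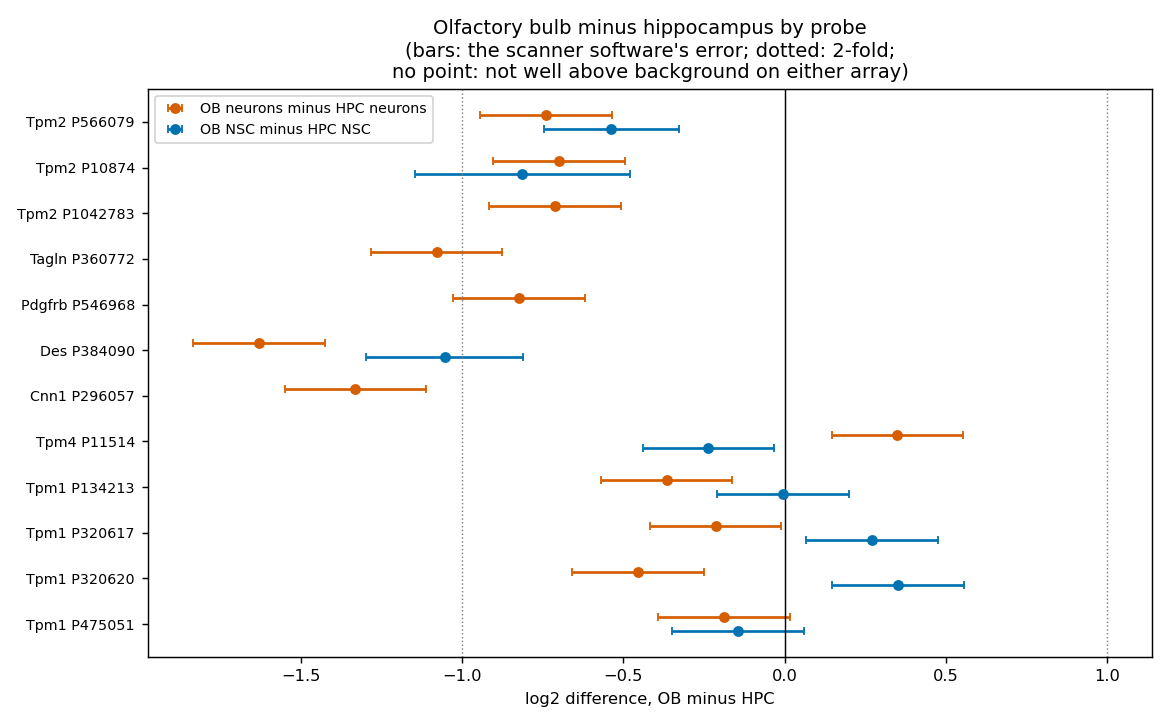
Log2 difference of OB minus HPC for each of the 12 probes, in neurons and in NSC, with the scanner software's error as bars and 2-fold as dotted lines. No point is drawn where a probe was not well above background on either array. In neurons the probes of Des, Cnn1 and Tagln lie to the left of 2-fold, and Tpm4 is the one probe to the right of 0.

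In the additive limma fit over both states, with the variance trend, no member was called between OB and HPC, beside 0.534% of genes called higher in OB and 1.76% called lower. At an unadjusted p under 0.05 the fit held 633 genes and 1 member, Des. Its estimate was -1.34 ± 0.50 (SE, 4 arrays), with a limma adjusted p of 0.190. Without the variance trend limma called 0 genes, 398 had an unadjusted p under 0.05, and the adjusted p of Des was 0.843. The sign of the Des difference was negative in both states.

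The neuron to NSC difference was next compared between the sources, for the 4 genes that all arrays detected. The OB difference minus the HPC difference was -0.58 ± 0.32 for Des, -0.20 ± 0.29 for Tpm2, 0.59 ± 0.29 for Tpm4 and -0.36 ± 0.29 for Tpm1. None of the 4 was apart by 2-fold or more, beside 13.8% of 5495 genes above and 6.77% below. The median was -0.28, beside 0.34 over all genes. With spike-in scaling 3 of the 4 were apart by 2-fold or more, but the share of all genes was not computed for that scaling. It moved the all-gene median of the neuron minus NSC difference to -0.61 in OB and 0.10 in HPC. How far the neuron to NSC difference itself differs between the sources could not be tested with 1 array per group. Among the other Tpm1 probes the value was -0.04 for A_44_P475051, -0.48 for A_44_P320617 and -0.81 for A_44_P320620 (each ± 0.29).

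Over the 4 arrays, the profile of each gene was then set against that of Tagln. No probe was matched to the gene named for this, Acta2, so Tagln was taken in its place after this was seen. By the root mean square difference of mean-centred log2 levels, with the floor in place of undetected signals, Pdgfrb (0.43) and Tpm2 (0.47) were the members most like Tagln. Des (1.84), Cnn1 (2.84), Tpm1 (3.86) and Tpm4 (3.88) were farther. Of 7105 other genes, those nearest to Tagln were Rgs4 (0.14), Msln (0.19), Mme (0.27), Fn1 (0.27) and Cd14 (0.29), which code for a regulator of G-protein signalling, mesothelin, the peptidase neprilysin, fibronectin and an endotoxin co-receptor. With 4 points that share the floor in NSC, this is a description only.

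Further genes of the contractile machinery had medians near 0. Of 28 such smooth muscle and filament genes, 17 had a probe. In OB 6 of them were higher by 2-fold or more and 2 were lower, in HPC 4 were higher and 1 was lower, and in both sources 3 were higher and 1 was lower. Of all genes, 26.9% were higher in OB, 21.8% in HPC and 18.5% in both, so the shares of this list lie near those of all genes. Their median difference was 0.46 in OB and 0.33 in HPC, beside 3.77 and 4.35 for the members and 0.08 and -0.32 for all genes. Tagln2, a transgelin of non-muscle cells, was at least 9.82 higher in OB and at least 9.23 higher in HPC. Cald1 (caldesmon, an actin-binding regulator) differed by 2.31 in OB and 3.49 in HPC, and Myl12b (a myosin regulatory light chain) by 2.57 and 1.34. Myh10, a non-muscle myosin heavy chain, was lower, by -1.68 in OB and -1.52 in HPC.

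Among 28 stress fibre and focal adhesion genes, 16 had a probe. Of these, 10 were higher and 1 lower in OB, 11 were higher and 1 lower in HPC, and 9 were higher and 1 lower in both, beside the same shares of all genes. Their median was 1.13 in OB and 1.47 in HPC, above the all-gene medians given earlier and below those of the members. Tes (testin) was at least 6.16 higher in OB and at least 5.83 in HPC, and Pdlim3, a protein of actin filament anchor points, at least 5.73 and at least 4.71. Fhl2 differed by 6.35 in OB and 5.45 in HPC, and Itga1, a collagen-binding integrin chain, by 3.61 and 4.44.

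No probe was matched to SRF itself. Of 18 genes for SRF, its co-activators and related factors, 7 had one. In OB 2 of 7 were higher and 1 lower, in HPC 3 of 6 were higher and 2 lower, and the median was 0.09 in OB and 0.62 in HPC. With so few genes, and 26.9% of all genes higher in OB and 21.8% in HPC, these counts are no result about the list. Prrx1, a mesenchymal homeobox factor, differed by 6.98 in OB and 7.14 in HPC, and Klf4 by 3.63 and 1.36. Gata6 was lower, by -2.53 in OB and -1.20 in HPC. Of the PDGF genes other than Pdgfrb, 3 had a probe: the ligand Pdgfd was at least 1.93 higher in OB and at least 2.21 in HPC, and the ligand Pdgfa differed by -0.23 in OB and -1.42 in HPC. Of 4 other intermediate filament genes, 3 had a probe. Gfap, also in the astrocyte list below, was at least 4.97 higher in OB and at least 3.70 in HPC. Nes (nestin) differed by -0.86 in OB and -1.50 in HPC. Vim (vimentin), named after its value was seen, differed by 0.07 in OB and -0.18 in HPC.

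**Figure D5:**
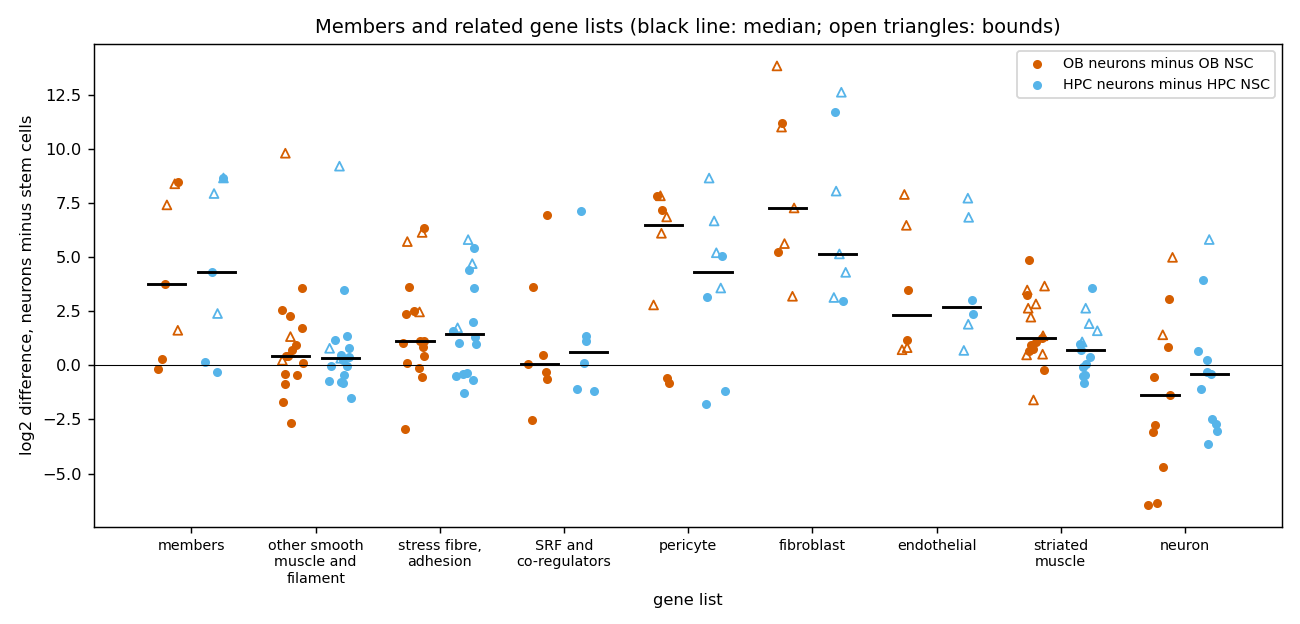
Log2 difference of neurons minus NSC for the 7 measured members and for the genes of 8 related lists, in OB (orange) and in HPC (blue), with 1 symbol per gene. Open triangles are bounds and black lines are medians. The members' medians of 3.77 in OB and 4.35 in HPC lie above those of the other smooth muscle and filament genes, 0.46 and 0.33, and below those of the fibroblast markers, 7.29 and 5.16.

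Markers of other cell types were compared in the same way. Medians of OB neurons minus HPC neurons were 0.66 for fibroblast, 0.48 for pericyte, 0.47 for astrocyte and 0.33 for striated muscle genes. They were -0.99 for endothelial and -0.70 for neuron markers, beside -0.82 for the members. Between neurons and NSC, all 7 fibroblast markers with a probe (of 13 listed) were higher in neurons of both sources, beside 18.5% of all genes. Col3a1 was higher by at least 13.87 in OB and at least 12.65 in HPC, and Col1a2 by 11.23 and 11.75. Summed levels are in units of the array's 75th percentile and weighted to the probes with the strongest signal. For the fibroblast markers the sum was 662 in OB neurons and 466 in HPC neurons, against 4.07 in OB NSC and 12.7 in HPC NSC. Col3a1, Dcn, Lum, Thy1 and Fap were not well above background on either NSC array. Their part in the members' difference was not tested.

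Of 8 pericyte markers with a probe (of 12), 6 were higher in both sources, beside 18.5% of all genes, and in HPC 2 were lower, beside 26.9%. Cspg4 (NG2) differed by 7.87 in OB and 5.05 in HPC, Kcnj8 by at least 6.88 and at least 8.67, Anpep by at least 7.85 and at least 6.69, and Rgs5 by at least 6.12 and at least 5.22. The summed level was 118 in OB neurons and 101 in HPC neurons, against 114 in OB NSC and 189 in HPC NSC. The sum did not follow the count, since 2 of the 8 markers, named after their values were seen, had negative differences: Notch3 by -0.60 in OB and -1.19 in HPC, and Mcam by -0.79 and -1.80. Rgs5, Abcc9, Kcnj8 and Anpep were not well above background on either NSC array. The part of these genes in the members' difference was likewise not tested.

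The next 2 lists stand beside 26.9% of all genes higher and 20.0% lower in OB, and 21.8% higher and 26.9% lower in HPC. Of 7 endothelial markers with a probe (of 11), 6 could be compared, and 4 were higher in OB and 5 in HPC, among them Eng by at least 7.92 in OB and at least 6.86 in HPC. The summed level was 8.08 in OB neurons and 9.66 in HPC neurons, against 0.312 in OB NSC and 0.382 in HPC NSC. Pecam1, a defining marker of endothelium, was not well above background on any array. Of 22 striated muscle genes with a probe (of 28), 10 of 17 compared were higher and 1 lower in OB, and 6 of 13 were higher and none lower in HPC. Their summed level was 11.3 in OB neurons and 11.9 in HPC neurons, against 6.37 in OB NSC and 11.2 in HPC NSC. Myod1, Myf6, Myh4 and Myl2, genes of skeletal or cardiac muscle, were not well above background on any array. Myog, Myh6, Myh7, Myl1 and Tnni1 were so on the OB neuron array only, and Ckm on the HPC neuron array only. For Myog the difference was at least 2.85 in OB. Actn3 differed by 4.90 in OB and 3.58 in HPC, the largest smaller-of-both difference in that list.

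Of all genes, 26.9% were higher and 20.0% lower in OB neurons, and 21.8% were higher and 26.9% lower in HPC neurons. Among the 11 neuron markers, 3 were higher and 6 lower in OB neurons, and 2 were higher and 5 lower in HPC neurons. Their summed level was 4.03 in OB neurons and 8.57 in HPC neurons, against 45.9 in OB NSC and 56.1 in HPC NSC. The Mapt probe made up 30.0 of the sum in OB NSC and 40.3 of that in HPC NSC. All 11 were well above background on both neuron arrays. Of the 8 astrocyte markers, 7 were higher and 1 lower in OB neurons, and 6 were higher and 1 lower in HPC neurons, with medians of 4.94 and 3.09. Which cells of the cultures held the members' RNA cannot be told from these arrays.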

How the data were processed

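The deposited values are spot intensities in fluorescence units. Agilent Feature Extraction 10.5.1.1 corrected them for background before deposit, per the file headers and processing notes of the submitters, and the authors' series table was identical to them (largest difference 0). No spot was saturated. Here log2 of the processed signal minus the array's 75th percentile was used. Of 41012 non-control probes, 254 were left out as outliers on an array. Probe accessions were matched to RefSeq genes of GRCr8 for names only: 10783 probes matched 1 symbol, 0 several and 29975 none. A gene with several probes is given by the brightest in counts and fits. The software's well-above-background column set detection.

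Single comparisons had no test. The additive fit used limma 3.58.1 (R 4.3.3), adjusted by Benjamini-Hochberg and called at 0.05. Alternatives were normexp (offset 50, on median spot signals), median, quantile and spike-in scaling, the percentile over probes detected on all arrays, stricter and no filters, the mean over probes, the authors' table, and limma without trend. The members and gene lists were chosen with earlier results of these data known. Named were all members, up to 4 genes of each other list with the largest smaller-of-both state difference, and the 5 genes nearest in profile to Tagln (no probe was matched to Acta2, which was planned).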

Additional observations from a re-analysis of the deposited data

Results flagged for a closer look

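For Tpm4, the neuron minus NSC difference pointed opposite ways in the 2 sources, 0.30 in OB and -0.28 in HPC, as did the OB minus HPC difference in the 2 states, 0.35 in neurons and -0.24 in NSC. The brightest Tpm1 probe, A_44_P134213, differed between neurons and NSC by -0.18 in OB and 0.18 in HPC. The Tpm1 probe A_44_P320617 differed by -0.43 in OB and 0.06 in HPC, and between OB and HPC by -0.21 in neurons and 0.27 in NSC. The Tpm1 probe A_44_P320620 differed between OB and HPC by -0.45 in neurons and 0.35 in NSC. With 1 array per group these contrasts in direction were not tested, and each single value was under 2-fold.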

How the results depend on the processing

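No paired analysis was possible because each group had 1 array and the labels carry no replicate numbers; the additive limma fit, with source as a term, sets each neuron array against the NSC array of its source. Keeping only genes detected on every array left Tpm1, Tpm2, Tpm4 and Des. This gave 2 members higher in neurons in OB and 2 in HPC (5 each otherwise). Limma called 2 members for state (5 otherwise), beside 909 of 5495 genes called higher and 1529 called lower. In neurons 1 member was lower in OB than in HPC (3 otherwise). The number lower in OB NSC than in HPC NSC was 0 in place of 1 with normexp, with the percentile over detected probes and with spike-in scaling. Spike-in scaling gave 5 in place of 3 genes lower in OB neurons than in HPC neurons, and 3 in place of 0 genes whose neuron to NSC difference was apart between sources. With it the all-gene median of OB neurons minus HPC neurons was -0.43. For these 2-fold counts the share of all genes was computed with the main values only. The causes of the moves under normexp and the other scalings were not tested. No direction of a called gene reversed. Scaling shifted the all-gene median of the neuron minus NSC difference to -0.41 in OB and -0.78 in HPC with median scaling, and to -0.61 in OB and 0.10 in HPC with spike-ins. The values for Tagln, Pdgfrb and Cnn1 in NSC are limited by signal over background, and 1 array per group limits every value.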
